A study of Mus musculus with 4 samples.

Results

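Endothelin signalling was followed through 4 genes: the ligand gene Edn1, the converting enzyme gene Ece1 and the receptor genes Ednra and Ednrb. They were taken by symbol from the gene tables of the deposited matrices, and each symbol matched 1 row, so the set is 4 of 57132 genes. The rule itself used no measured value, although the genes were chosen with earlier results of these data known. The study profiled the kidneys of 4 wild-type mice by droplet single-cell RNA sequencing, 1 library per mouse, after induction of contrast-induced acute kidney injury (CIAKI), in which a radiological contrast agent impairs renal function. All 4 libraries form 1 group and carry the label of batch 1, and the labels describe them as independent biological replicates. Which contrast agent was used, at what dose and how long before collection are not given in the sources used here. No uninjured mice were analysed here, so every comparison is between cell classes of injured kidneys and none measures an effect of contrast.

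Endothelin-1 is a vasoconstrictor peptide that acts mostly on cells close to those that release it. Its precursor is cleaved first by furin-like proteases to an inactive intermediate, big endothelin-1, and then by endothelin-converting enzyme 1, the product of Ece1, to the active peptide. The type A receptor, encoded by Ednra, contracts smooth muscle through Gq proteins and calcium, whereas the type B receptor, encoded by Ednrb, releases nitric oxide from endothelium, clears the ligand and, in the collecting duct, restrains sodium uptake. The kidney is known to be sensitive to endothelin-1, and contrast agents have long been studied for their effect on its release.

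The cut that Ece1 makes is shown in the coding sequence, since it defines which transcripts can yield active ligand. The 3 ligand genes of the mouse each encode the mature peptide of 21 codons in exon 2 of 5, on the plus strand of GRCm38 (GENCODE M21 annotation): Edn1 at chr13:42303649-42303714, Edn2 at chr4:120161951-120162016 and Edn3 at chr2:174761749-174761814. Each sequence below runs from the first codon of the mature peptide through the codon that follows it, and the capitals mark the codons on both sides of the cut, the last of the mature peptide (tryptophan) and the next.
Edn1: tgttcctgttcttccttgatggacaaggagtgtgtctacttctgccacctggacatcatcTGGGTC
Edn2: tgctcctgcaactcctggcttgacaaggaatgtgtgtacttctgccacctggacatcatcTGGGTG
Edn3: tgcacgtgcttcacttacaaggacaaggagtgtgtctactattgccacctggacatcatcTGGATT
Edn2 shared 55 of the 66 bases with Edn1 and Edn3 shared 51. The member genes lie at chr13:42301476-42307990 (Edn1, plus strand), chr4:137862237-137965229 (Ece1, plus strand), chr8:77663031-77724464 (Ednra, minus strand) and chr14:103814625-103844402 (Ednrb, minus strand) in the same annotation, matched by the gene identifiers of the files. The build behind the deposited counts is not given in the sources used here.

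After filtering, 7085, 8751, 12903 and 12091 cells remained in mice 1 to 4, with median depths of 5549, 5780, 5655 and 2077 unique molecular identifiers (UMIs) per cell. Mouse 4 stood apart from the others in depth and in ribosomal protein transcripts, whose median share was 13.7% in it and between 1.48% and 2.35% in mice 1 to 3. The libraries of mice 1, 2 and 3 shared between 23 and 54 cell barcodes in each pair, and mouse 4 shared 1 with mouse 2 and 0 with mice 1 and 3. Cells were clustered without the endothelin genes and named from marker genes, and a class is called "-like" for that reason. Endothelial markers summed to between 10330 and 17152 CPM (UMIs of a gene or list per 1000000 UMIs of the same class in the same mouse) in the endothelial-like class of each mouse and to between 118 and 549 in T lymphocyte-like cells. Smooth muscle markers summed to between 13655 and 20030 CPM in mural-like cells, the contractile cells of vessel walls with their renin-producing and mesangial relatives. Mouse 4 held 13 mural-like and 17 glomerular endothelial-like cells, so its values for these classes rest on few UMIs.

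T lymphocyte-like cells, which should lack Edn1, Ednra and Ednrb, served as the measure of free RNA and counting noise: in them Edn1 averaged 3.48 ± 5.78 CPM, Ednra 1.30 ± 2.24 and Ednrb 32.3 ± 23.6 (SD, n = 4). Mouse 3 had the highest background, and without it these means were 0.60, 0.19 and 22.6 CPM. Above that level the genes had different homes. Edn1 was highest in arterial endothelial-like cells, Ednra in mural-like cells, Ednrb in endothelial-like and mural-like cells, and Ece1 in endothelial-like cells of every kind. Among whole classes, in order of mean Edn1, the ranges of every pair of neighbours overlapped. For Ednra the step down came after fibroblast-like cells, whose range did not overlap that of the next class, and for Ednrb it came after mural-like cells.

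**Figure D1:**
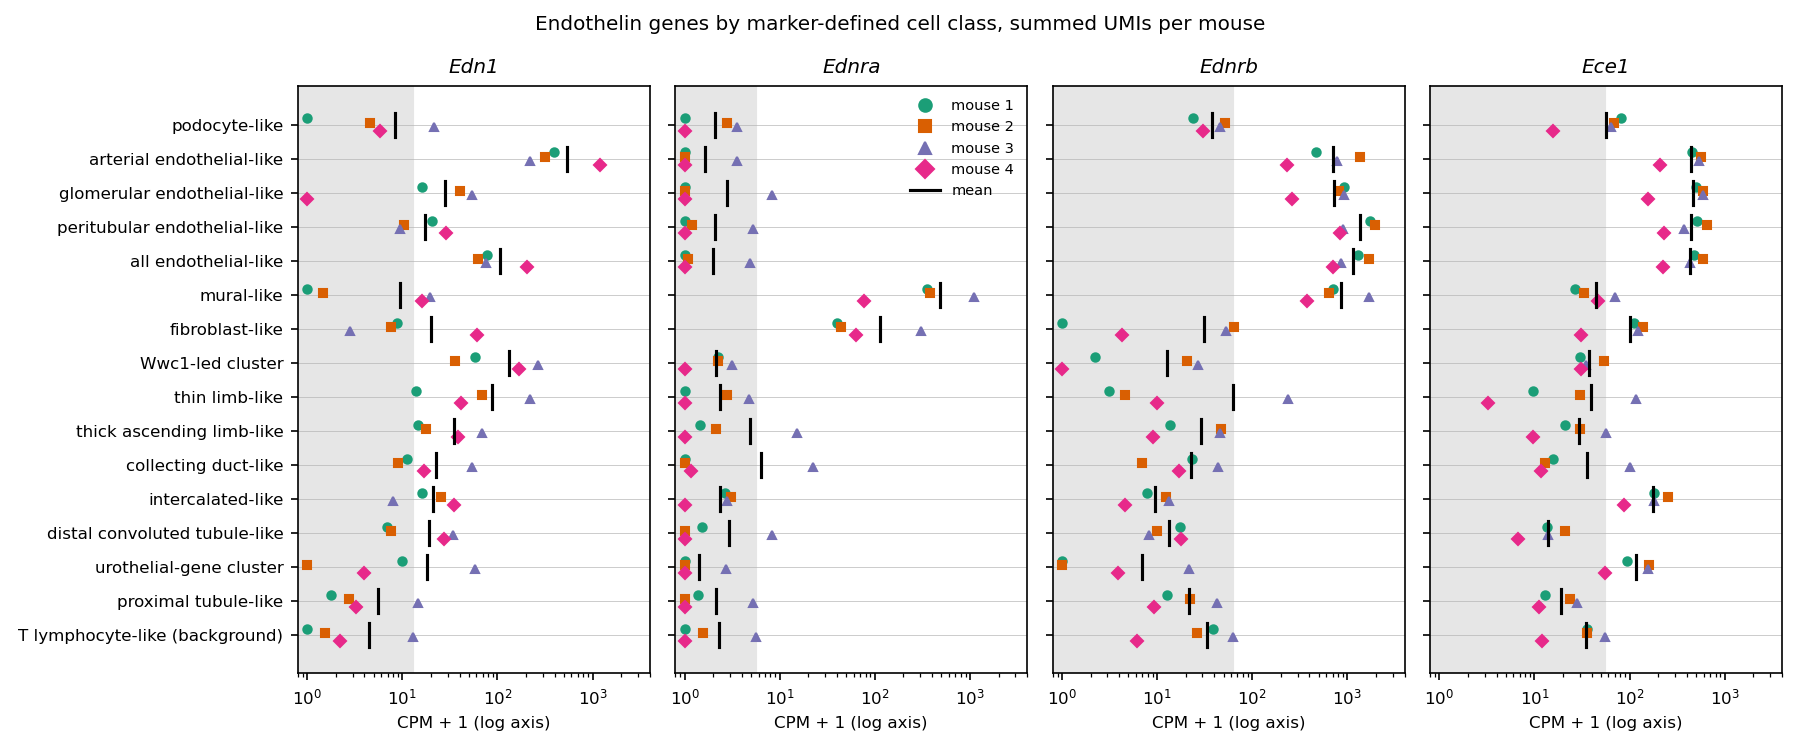
Level of each gene (CPM + 1 of summed UMIs, log axis) in marker-defined classes, with 1 symbol per mouse and a bar at the mean. Grey shading covers the range seen in T lymphocyte-like cells, and Ednra leaves it in mural-like and fibroblast-like cells while Ednrb leaves it in endothelial-like and mural-like cells of all 4 mice.

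Edn1 was an arterial transcript within the endothelium. Arterial endothelial-like cells, named from genes such as Sox17 and Fbln5, had 391.6, 315, 218 and 1205 CPM of Edn1 in mice 1 to 4, against 18.9, 12.9, 15.2 and 27.1 CPM in capillary endothelial-like cells, the glomerular and peritubular cells together. The arterial markers Gja5 and Bmx did not pass in the largest arterial subcluster of mouse 2 (121 cells) or of mouse 3 (529 cells). The lowest arterial value lay above the highest capillary value, and mouse 4 was the highest in both classes. The mean was 532 ± 454 CPM in arterial and 18.5 ± 6.22 CPM in capillary cells (SD, n = 4), a log2 fold change of 4.54 ± 0.27 (edgeR quasi-likelihood test with the mouse as a block and Benjamini-Hochberg adjustment, adjusted p = 1.68e-05). Errors of log2 fold changes here and below are approximate standard errors from the F statistic. The p-values weigh a class difference against how much that difference varied between these 4 mice, with the level of each mouse set aside by the block. A UMI of Edn1 was found in 41.1% ± 12.1 of arterial and 3.77% ± 0.78 of capillary cells, at mean median depths of 5615 and 5200 UMIs, and in 0.93% ± 1.56 of T lymphocyte-like cells at 3763. With every cell thinned to 1000 UMIs the shares were 21.1%, 1.43% and 0.38%.

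The receptor of the same cells ran the other way. Ednrb was at 470.5, 1352, 773 and 229 CPM in arterial endothelial-like cells of mice 1 to 4, against 1586, 1846, 900 and 825 CPM in capillary cells. The arterial value of mouse 2 included a subcluster of 121 cells at 2015.5 CPM, while its other arterial subclusters had 674 and 273 CPM. Mal, Fbln2 and Dipk2b were leading genes of that subcluster and of 1 named peritubular in mouse 1. The arterial level was lower in each of the 4 mice although the ranges overlapped (log2 fold change -1.06 ± 0.25, edgeR adjusted p = 0.0232). That call was lost without mouse 1 (adjusted p = 0.0954) and without mouse 4 (adjusted p = 0.150), each with a log2 fold change near the reported one. Ece1 averaged 440 ± 162 CPM in arterial and 445 ± 176 CPM in capillary cells (log2 fold change -0.03 ± 0.13, edgeR adjusted p = 0.941). Of the 3 members tested in this comparison 1 was higher and 1 lower, where 6.60% of the 11288 genes tested were higher and 6.48% lower.

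Arterial-like cells were not uniform in Ednrb. In each mouse 1 arterial subcluster had Aqp1 first among its leading genes, the water channel known from descending vasa recta and arterioles, and these subclusters are described after their values were seen, with no test. They had 37.0, 273, 211 and 30.004 CPM of Ednrb in mice 1 to 4, against 792, 1534, 929 and 308 CPM in the other arterial-like cells. The Aqp1-led cells were thus lower in all 4 mice, and they numbered 30, 19, 134 and 50. Among the other arterial-like cells of mouse 2, the subcluster of 121 cells had 2015.5 CPM and that of 66 cells had 674 CPM. Edn1 was high in both sets, at 278, 300, 457 and 1002 CPM in the Aqp1-led cells and 476, 318, 152 and 1285 CPM in the others. The highest single subcluster was 1 of mouse 4 led by Mgp, a matrix calcification inhibitor of arteries, with 2858 CPM of Edn1 and 17.6 CPM of Ednrb in 45 cells. Endothelial cells left unnamed but with Apln or Angpt2 among their leading genes, both known from sprouting vessels, had 128, 64.8, 18.7 and 69.2 CPM of Edn1, between the arterial and the peritubular levels in each mouse, with Ednrb at 1505, 1733, 966 and 709 CPM. In each mouse Abcc9 or Kcnj8, listed here as pericyte and mesangial markers, was also among their leading genes. The part of pericyte RNA in these values was not tested.

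**Figure D2:**
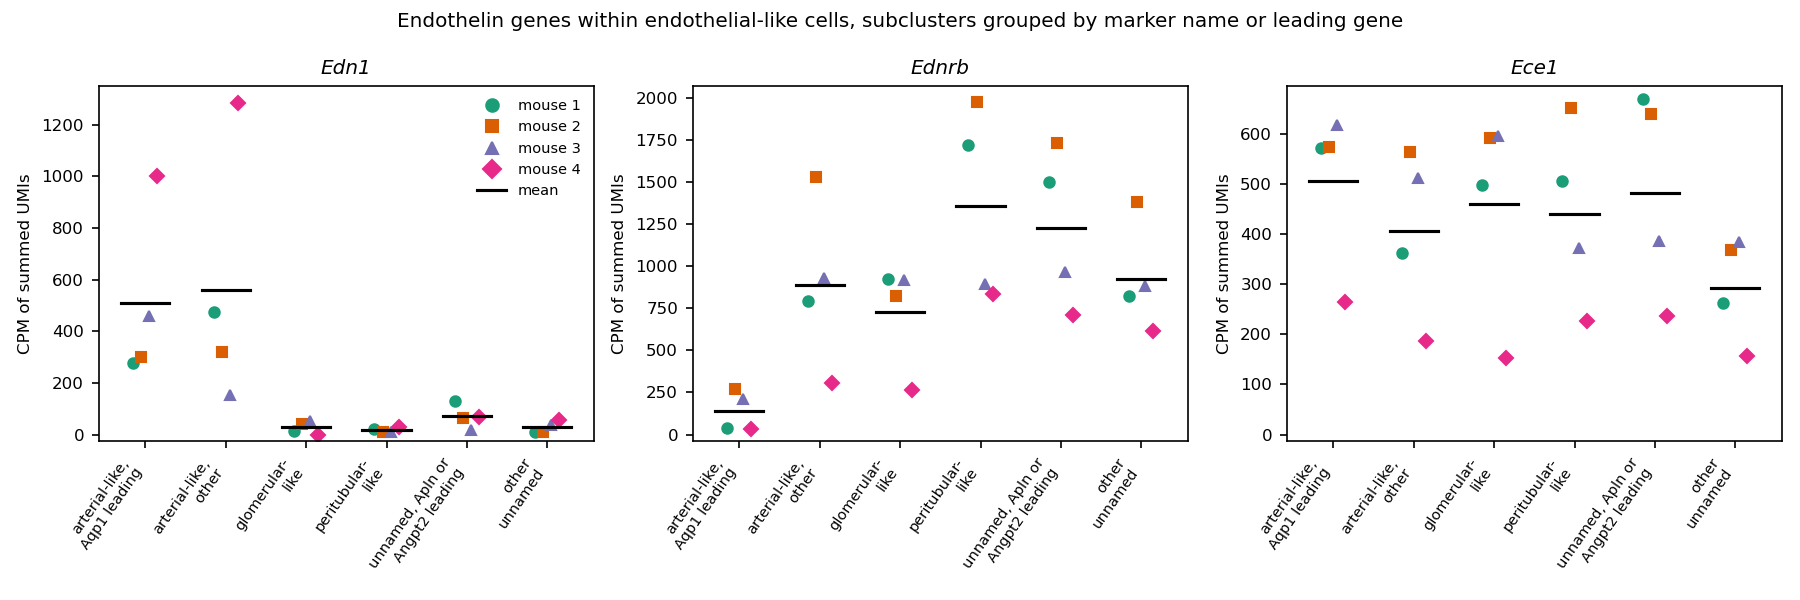
Edn1, Ednrb and Ece1 (CPM of summed UMIs) in 6 sets of endothelial-like subclusters, 1 symbol per mouse and a bar at the mean. Edn1 stands up in both arterial-like sets, Ednrb is lowest in the Aqp1-led arterial-like set (30.004 to 273 CPM), and Ece1 is spread over all sets.

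Glomerular capillaries did not pass a test against peritubular capillaries for any member. Edn1 was at 15.1, 39.7, 53.7 and 0 CPM in glomerular endothelial-like cells of mice 1 to 4, against 19.7, 9.5, 8.5 and 27.6 CPM in peritubular endothelial-like cells, and the value of mouse 4 comes from 0 UMIs among 45651, which still allows 65.7 CPM (3 counts). Glomerular cells were higher in mice 2 and 3 and lower in mice 1 and 4 (log2 fold change 1.44 ± 0.45, edgeR adjusted p = 0.0573). Ednrb averaged 732 ± 316 CPM in glomerular and 1358 ± 578 CPM in peritubular cells (log2 fold change -0.98 ± 0.34, edgeR adjusted p = 0.102). Ece1 differed by 0.00 ± 0.29 on the log2 scale between 460 ± 209 CPM in glomerular and 439 ± 182 CPM in peritubular cells. Of the 3 members tested 0 were called by edgeR, with Edn1 and Ednrb at an unadjusted p of 0.00476 and 0.0104, where 3.05% of 9872 genes were higher and 4.74% lower. Without mouse 1 the Edn1 difference passed (1.97, adjusted p = 4.53e-06), and without mouse 3 that of Ednrb did (-1.35, adjusted p = 0.00304). Both also passed with no filter on low counts (adjusted p of 2.67e-04 for Edn1 and 5.29e-05 for Ednrb), and Edn1 with high doublet scores removed (adjusted p = 0.0355).

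Podocyte-like cells, the epithelium on the outer face of the glomerular capillary, carried little of the system. They had 36.8 ± 13.0 CPM of Ednrb, close to the level of T lymphocyte-like cells, against 732 ± 316 CPM in glomerular endothelial-like cells (log2 fold change -4.23 ± 0.46, edgeR adjusted p = 2.52e-05). Ece1 averaged 56.2 ± 28.8 CPM in podocyte-like and 460 ± 209 CPM in glomerular endothelial-like cells (-2.98 ± 0.34, edgeR adjusted p = 3.39e-05). Both differences were lower in all 4 mice with no overlap, so both of the 2 members tested were lower, where 11.8% of 7419 genes were lower and 14.3% higher. Edn1, too low for the test, averaged 7.31 ± 9.21 CPM in podocyte-like and 27.1 ± 24.1 CPM in glomerular cells. The 12 endothelial markers summed to between 776 and 1631 CPM in podocyte-like cells, with 11 of them in every mouse, and their part in these values was not tested.

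Outside the vessels, the highest mean Edn1 of any whole class was in a small epithelial cluster of 324 cells. That rank came from mouse 3, the only mouse in which the cluster was above endothelial-like cells. Without mouse 3 the means were 86.9 CPM in the cluster and 114 CPM in endothelial-like cells. The cluster met markers of injured proximal tubule and of the glomerular capsule epithelium alike, so it has no cell type name and is called after its leading gene the Wwc1-led cluster. Of the 10 markers listed for injured proximal tubule, 8 had a higher mean in it than in proximal tubule-like cells, among them Vcam1 (248 against 17.4 CPM) and Spp1 (13118 against 4652 CPM), with Sox9 close (133 against 123 CPM). The injury genes Havcr1 (1.27 against 138 CPM) and Krt20 (17.9 against 146 CPM) were higher in proximal tubule-like cells, so injury genes were present on both sides of this comparison. Its Edn1 was at 57.5, 34.6, 268 and 169 CPM in mice 1 to 4, against 0.77, 1.76, 13.7 and 2.28 CPM in the proximal tubule-like class. The cluster was higher in all 4 mice with no overlap, by 4.77 ± 0.34 on the log2 scale (edgeR adjusted p = 8.08e-06). A UMI of Edn1 was found in 37.2% ± 7.4 of its cells at a mean median depth of 12673 UMIs, in 1.57% ± 1.92 of proximal tubule-like cells at 3651 and in 0.93% ± 1.56 of T lymphocyte-like cells at 3763. Thinned to 1000 UMIs the shares were 10.4%, 0.31% and 0.38%. The 4 thinned values of the cluster were 7.84%, 0%, 18.4% and 15.4%, with 0 UMIs among 42 cells in mouse 2.

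Markers of other cell types were measured in the same cluster. The 12 endothelial markers summed to 36.7, 467, 224 and 60.2 CPM in the Wwc1-led cluster of mice 1 to 4, against 155, 184, 413 and 154 CPM in proximal tubule-like cells, and 8 of them had UMIs in every mouse. Sox17 and Gja5, which mark arterial endothelium, averaged 0.55 and 0.83 CPM in the cluster and were at 0 in some mice. The 12 macrophage markers summed to between 164 and 1033 CPM there, 7 of them with UMIs in every mouse and 1 at 0 in all 4, and mouse 3 was the highest, the mouse in which macrophage-like cells carried Edn1. The part of either cell type in the Edn1 level was not tested. Ece1 averaged 36.7 ± 11.1 CPM in the cluster and 18.0 ± 8.07 CPM in proximal tubule-like cells, a difference (0.78 ± 0.25, edgeR adjusted p = 0.0388) that was lost without mouse 1, 2 or 4 (adjusted p between 0.0922 and 0.149). Ednrb averaged 11.7 ± 13.1 CPM in the cluster and 20.6 ± 14.8 CPM in proximal tubule-like cells (-1.16 ± 0.45, edgeR adjusted p = 0.0770), both at or under the T lymphocyte-like level. Of the 3 members tested 2 were higher, where 15.1% of 10938 genes were higher and 15.6% lower.

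Distal nephron cells also had more Edn1 than the proximal tubule, at lower levels. Collecting duct-like cells, in which endothelin-1 is known to act on its own tubule through the type B receptor, had 10.3, 7.95, 53.1 and 15.8 CPM of Edn1 in mice 1 to 4, against the proximal tubule-like values given above. They were higher in all 4 mice, and the ranges overlapped through mouse 3, which was the highest in both classes (2.40 ± 0.36, edgeR adjusted p = 6.28e-04). Thick ascending limb-like cells averaged 33.9 ± 25.1 CPM and were higher than proximal tubule-like cells in all 4 mice (3.23 ± 0.33, edgeR adjusted p = 3.14e-05). The ranges just overlapped, with a lowest value of 13.58 CPM against a highest of 13.66 in the proximal tubule. Arterial endothelial markers summed to between 20.7 and 32.4 CPM and all endothelial markers to between 157 and 438 CPM in cells of the thick ascending limb-like class, within the range of T lymphocyte-like cells for the second. Of the 3 members tested, 1 was higher in the collecting duct, where 18.5% of 11106 genes were higher and 20.4% lower, and 2 in the thick ascending limb, where 18.9% of 11939 genes were higher and 19% lower. The second of these was Ece1 (0.75 ± 0.24, edgeR adjusted p = 0.0316), a call lost without mouse 1, 2 or 3 (adjusted p of 0.144, 0.0531 and 0.0839).

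In thin limb-like cells Edn1 differed widely between mice, at 12.9, 68.3, 222 and 40.5 CPM in mice 1 to 4. Mouse 3 was also the mouse in which these cells had 235 CPM of Ednrb, against between 2.14 and 9.01 in the others, and 2494 CPM of summed endothelial markers, against between 70.7 and 146. The part of endothelial RNA in the thin limb-like values was not tested. Distal convoluted tubule-like cells averaged 18.0 ± 13.7 CPM of Edn1 and intercalated-like cells 20.3 ± 11.7 CPM, and in the intercalated-like cells the level was 6.68 CPM after thinning.

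The sister ligands were found mainly in epithelial cells. Edn3, which encodes a ligand that binds the type B receptor preferentially, was at 62.4, 99.99, 11.8 and 12.04 CPM in the Wwc1-led cluster of mice 1 to 4, against 0 UMIs in proximal tubule-like cells of each mouse, where 0 allows between 0.63 and 2.64 CPM. Intercalated-like cells, the acid-base cells of the collecting system, had 79.5, 89.3, 3.53 and 27.8 CPM of Edn3, and 5 UMIs were counted in 8381 endothelial-like cells. Edn2 was nearly silent, with 44 UMIs in all cells, 36 of them in a cluster led by urothelial genes.

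In 1 mouse Edn1 was also found in leukocytes. Macrophage- and monocyte-like cells had 0.43, 1.05, 233 and 4.28 CPM in mice 1 to 4, and in mouse 3 a UMI of Edn1 was found in 46.0% of them. In mouse 3 the level was 356 CPM in the macrophage cluster led by Il27, 160 CPM in the monocyte cluster led by Saa3 and 129 CPM in the neutrophil cluster led by Ngp, against 12.1 CPM in T lymphocyte-like cells of the same mouse. NK-like cells of mouse 3 had 154 CPM and B lymphocyte- and plasma-like cells 51.1 CPM, against 0 CPM (which still allows 60.2 CPM) and 1.21 CPM in mouse 4. With 1 such mouse, a property of the animal and one of its library cannot be told apart. Endothelial markers summed to 285 CPM in the macrophage-like cells of mouse 3, against between 67.2 and 193 CPM in those of the other mice. Of all Edn1 UMIs in kept cells, endothelial-like cells held 68.3%, 80.6%, 10.9% and 65.5% in mice 1 to 4, and macrophage- and monocyte-like cells 1.32%, 1.64%, 55.04% and 2.22%. Tubular-like cells held 21.8%, 12.9%, 6.45% and 21.7%. These shares depend on how many cells of each class were recovered as well as on the level per cell.

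**Figure D3:**
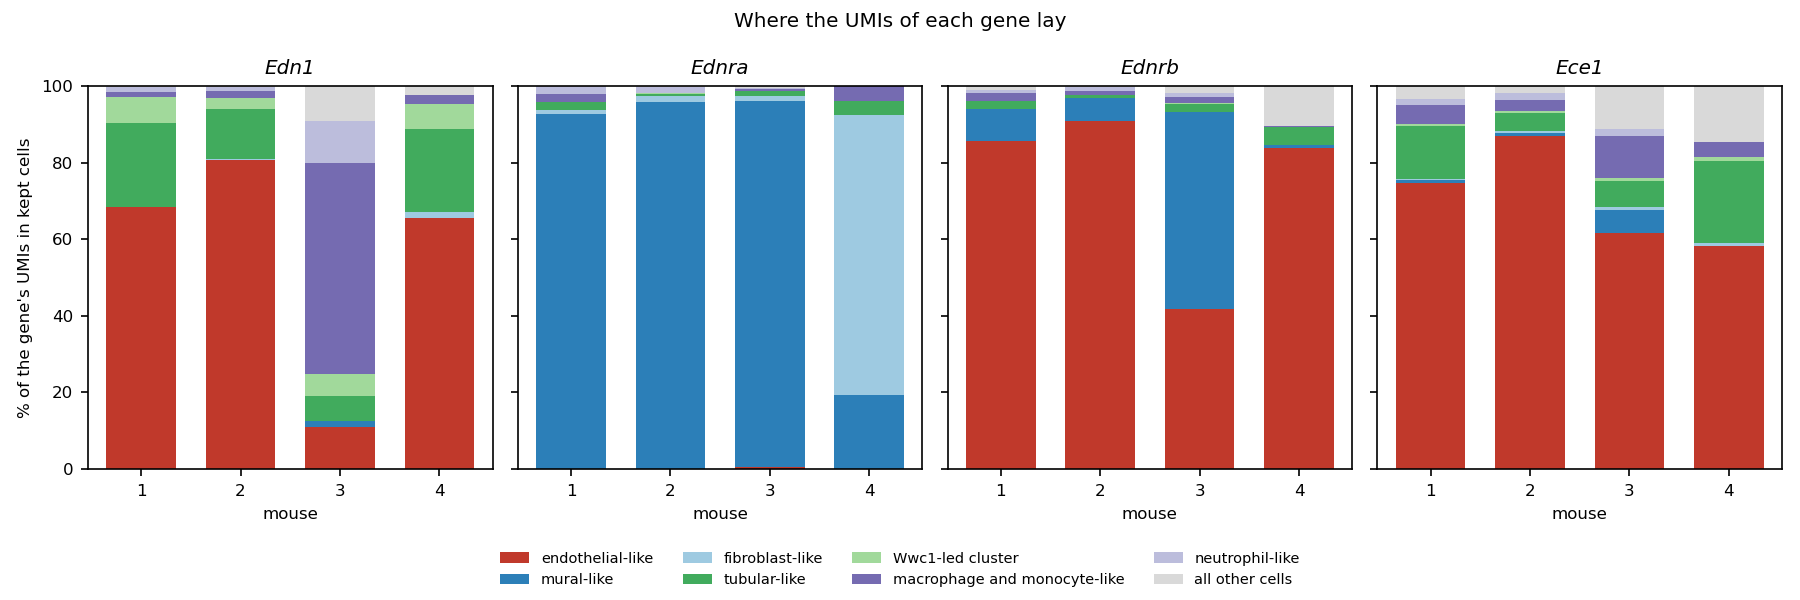
Share of each gene's UMIs (% of those in kept cells) that lay in each class, 1 bar per mouse. Edn1 lay mostly in endothelial-like cells in mice 1, 2 and 4 and in macrophage- and monocyte-like cells in mouse 3, and Ednra lay in stromal cells in each mouse.

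Ece1 marked the endothelium as a whole, with a second home in intercalated-like cells. Endothelial-like cells had 469, 586, 435 and 224 CPM in mice 1 to 4, against 23.3 to 58.4 CPM in all tubular-like cells together. The endothelial level was higher in all 4 mice with no overlap (3.33 ± 0.15, edgeR adjusted p = 2.45e-05). Intercalated-like cells had 181, 251, 178 and 86.3 CPM of Ece1, the highest mean of the tubular classes. They stood 255 ± 84.7 CPM under endothelial-like cells, lower in all 4 mice, although the ranges of the classes overlapped. Collecting duct-like cells had 14.6, 11.9, 100.5 and 10.8 CPM in mice 1 to 4. The urothelial-gene cluster averaged 115 ± 50.4 CPM and fibroblast-like cells 99.4 ± 47.8 CPM, and the other epithelial classes lay between 12.7 and 56.2 CPM, against 33.6 ± 17.6 CPM in T lymphocyte-like cells. With cells thinned to 1000 UMIs, Ece1 was seen in 31.2% of endothelial-like, 17.5% of intercalated-like and 2.67% of T lymphocyte-like cells. Lymphatic endothelial-like cells, found in mouse 4 with 14 cells, had 20 UMIs of Ece1 and 630 CPM.

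Ednra was a transcript of the stroma. Mural-like cells had 357, 377, 1109 and 75.4 CPM in mice 1 to 4, the last from 5 UMIs in 13 cells, against 39.0, 43.4, 301 and 62.9 CPM in fibroblast-like cells. Mural-like cells were higher in all 4 mice, by little in mouse 4, and the ranges overlapped because mouse 3 was high in both classes. The mean was 479 ± 442 CPM in mural-like and 112 ± 127 CPM in fibroblast-like cells (log2 fold change 2.22 ± 0.40, edgeR adjusted p = 0.00198), and without mouse 3 the fibroblast-like mean was 48.4 CPM and the mural-like mean 270 CPM. Vascular smooth muscle markers summed to 4835, 2437, 1577 and 7649 CPM in fibroblast-like cells of mice 1 to 4. The part of mural RNA in the Ednra of fibroblast-like cells was not tested. Within mural-like cells, pericyte- and mesangial-like cells had 478, 573 and 456 CPM in mice 1, 2 and 3, vascular smooth muscle-like cells 263, 295 and 522 CPM in the same mice, and juxtaglomerular-like cells, which make renin, 262, 839 and 78.0 CPM in mice 2, 3 and 4. The pericyte- and mesangial-like name did not cover the same cells in each mouse. In mouse 1 it joined a subcluster named from Rgs5 and Notch3 (535 CPM) with 1 named from Itga8 and Gata3 (206 CPM). In mouse 2 it held the first kind only (573 CPM), and a subcluster with Itga8 and Gata3 stayed unnamed at 133 CPM. In mouse 3 it held the second kind only (456 CPM). The order of these mural subclasses differed between mice, and it does not compare like cells.

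Elsewhere Ednra was low. Endothelial-like cells had 0, 0.08, 3.92 and 0 CPM in mice 1 to 4, against 1.30 ± 2.24 CPM in T lymphocyte-like cells, and no other class of vascular or epithelial cells averaged over 5.35 CPM. In mouse 3, collecting duct-like cells had 21.2 CPM and thick ascending limb-like cells 14.1 CPM, against 4.63 CPM in its T lymphocyte-like cells. A UMI of Ednra was found in 70.6% ± 22.2 of mural-like cells, 30.2% ± 19.2 of fibroblast-like cells and 0.63% ± 1.08 of T lymphocyte-like cells, at mean median depths of 6914, 5593 and 3763 UMIs, and after thinning in 30.5%, 10.8% and 0.22%. Stromal cells held 93.8%, 97.2%, 96.9% and 92.3% of all Ednra UMIs. In mouse 4, where 88 fibroblast-like and 13 mural-like cells were recovered, the fibroblast-like cells held 73.1%.

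Ednrb had 2 strong homes. Endothelial-like cells had 1291, 1681, 867 and 707 CPM in mice 1 to 4, and peritubular endothelial-like cells had the highest mean of the named endothelial classes in the 4 mice, with 1722, 1977, 897 and 835 CPM, although glomerular cells were higher in mouse 3 (917 CPM). Mural-like cells had 712, 647, 1708 and 377 CPM, against 0, 63.4, 52.7 and 3.31 CPM in fibroblast-like cells, whose values lay in the range of T lymphocyte-like cells or under it in 3 mice and just above it in mouse 2. Mural-like cells were higher than fibroblast-like cells in all 4 mice with no overlap (4.87 ± 0.52, edgeR adjusted p = 4.82e-05). Ece1 ran against the receptors, at 43.2 ± 19.1 CPM in mural-like and 99.4 ± 47.8 CPM in fibroblast-like cells (-1.40 ± 0.36, edgeR adjusted p = 0.0176), a call lost without mouse 1 or 2 (adjusted p of 0.0770 and 0.202). Of the 3 members tested between mural-like and fibroblast-like cells 2 were higher and 1 lower, where 8.62% of 6484 genes were higher and 9.99% lower. Edn1 was too low there for the test, at 8.55 ± 9.70 CPM in mural-like and 19.0 ± 27.2 CPM in fibroblast-like cells.

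**Figure D4:**
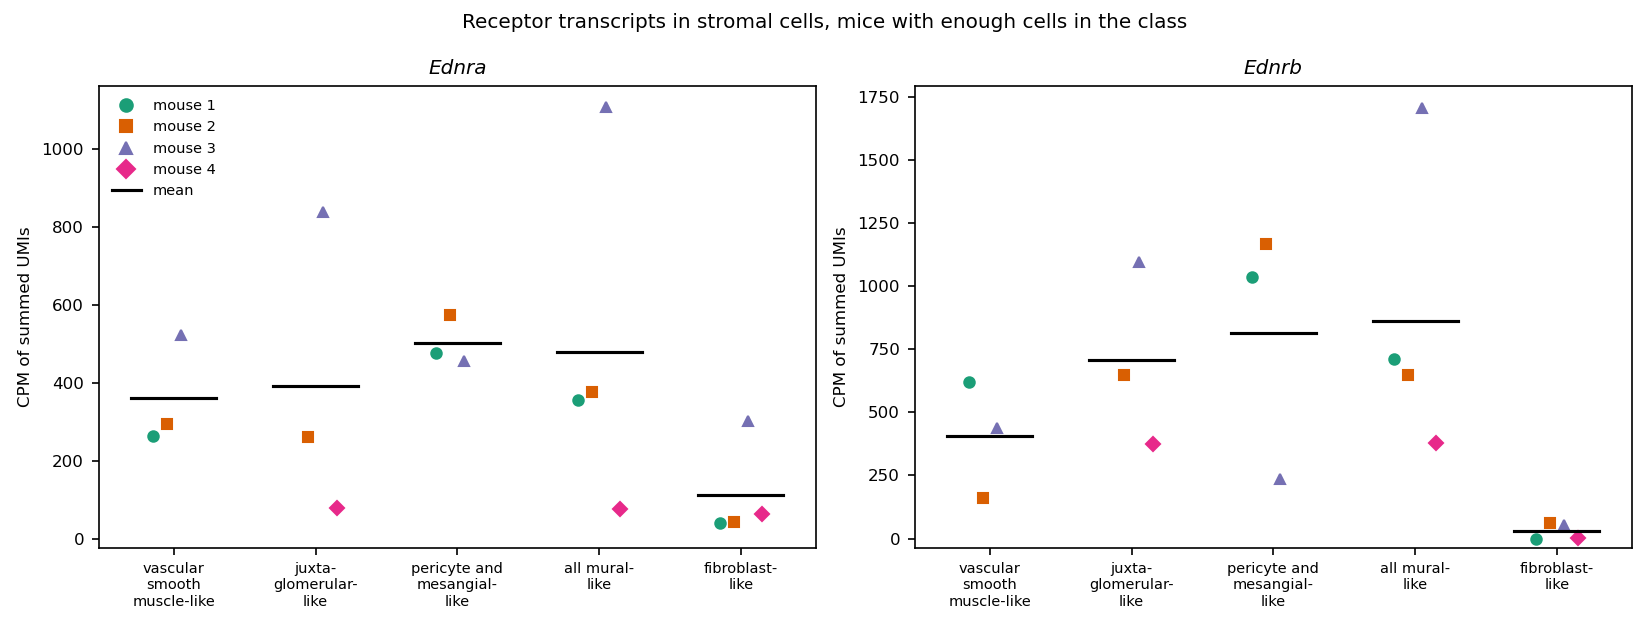
Ednra and Ednrb (CPM of summed UMIs) in subclasses of mural-like cells, all mural-like cells and fibroblast-like cells, 1 symbol per mouse with 10 or more cells and a bar at the mean. Mouse 3 is highest for both receptors in all mural-like cells (1109 and 1708 CPM), and Ednrb is at most 63.4 CPM in fibroblast-like cells.

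In the tubule, apart from the thin limb-like cells of mouse 3, Ednrb lay near the level of T lymphocyte-like cells. Leukocyte classes differed in that level, with means of 32.3 CPM in T lymphocyte-like and 20.2 in B lymphocyte- and plasma-like cells. Neutrophil-like cells averaged 12.2 CPM and macrophage- and monocyte-like cells 11.8. In 2 mice, NK-like cells averaged 61.8 CPM and dendritic cell-like cells 5.06. The collecting duct-like mean of 21.8 CPM lay among these, so its place depends on the class taken as background. Collecting duct-like cells, where the type B receptor is known to act, had 22.3, 5.96, 43.0 and 15.8 CPM in mice 1 to 4, against 37.8, 25.0, 61.3 and 5.08 CPM in T lymphocyte-like cells. Collecting duct-like cells were lower than T lymphocyte-like cells in mice 1, 2 and 3 and higher in mouse 4. Thick ascending limb-like cells averaged 28.1 ± 20.6 CPM and proximal tubule-like cells 20.6 ± 14.8 CPM, and neither the collecting duct (0.23 ± 0.37, edgeR adjusted p = 0.653) nor the thick ascending limb (0.52 ± 0.23, edgeR adjusted p = 0.109) passed a test against the proximal tubule.

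Taken by lineage, endothelial-like cells were above tubular-like cells for the 3 members that could be tested. Ednrb was higher by 5.74 ± 0.46 on the log2 scale, with 1136 ± 439 CPM in endothelial-like and 25.3 ± 19.0 CPM in tubular-like cells (edgeR adjusted p = 1.02e-04). Edn1 was higher by 2.19 ± 0.45, with 75.9, 60.9, 74.5 and 206 CPM in endothelial-like cells of mice 1 to 4, against 24.7 ± 18.5 CPM in tubular-like cells (edgeR adjusted p = 0.00619). These and the Ece1 difference make 3 of 3 higher, in a comparison where 25.5% of 15725 genes were higher and 27.5% lower. Against stromal cells, mural-like and fibroblast-like together, 2 of 4 members were higher and 1 lower, where 15.9% of 13049 genes were higher and 14.8% lower. Ece1 was higher by 3.32 ± 0.25 (edgeR adjusted p = 8.42e-05) and Edn1 by 3.23 ± 0.57 (edgeR adjusted p = 0.00437), while Ednra was lower by a log2 fold change of -9.21 ± 0.70 (edgeR adjusted p = 9.53e-05). Ednrb averaged 1136 ± 439 CPM in endothelial-like and 725 ± 648 CPM in stromal cells, higher in 3 of 4 mice (1.27 ± 0.63, edgeR adjusted p = 0.178), and it passed without mouse 3 (1.88, adjusted p = 0.0217).

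**Figure D5:**
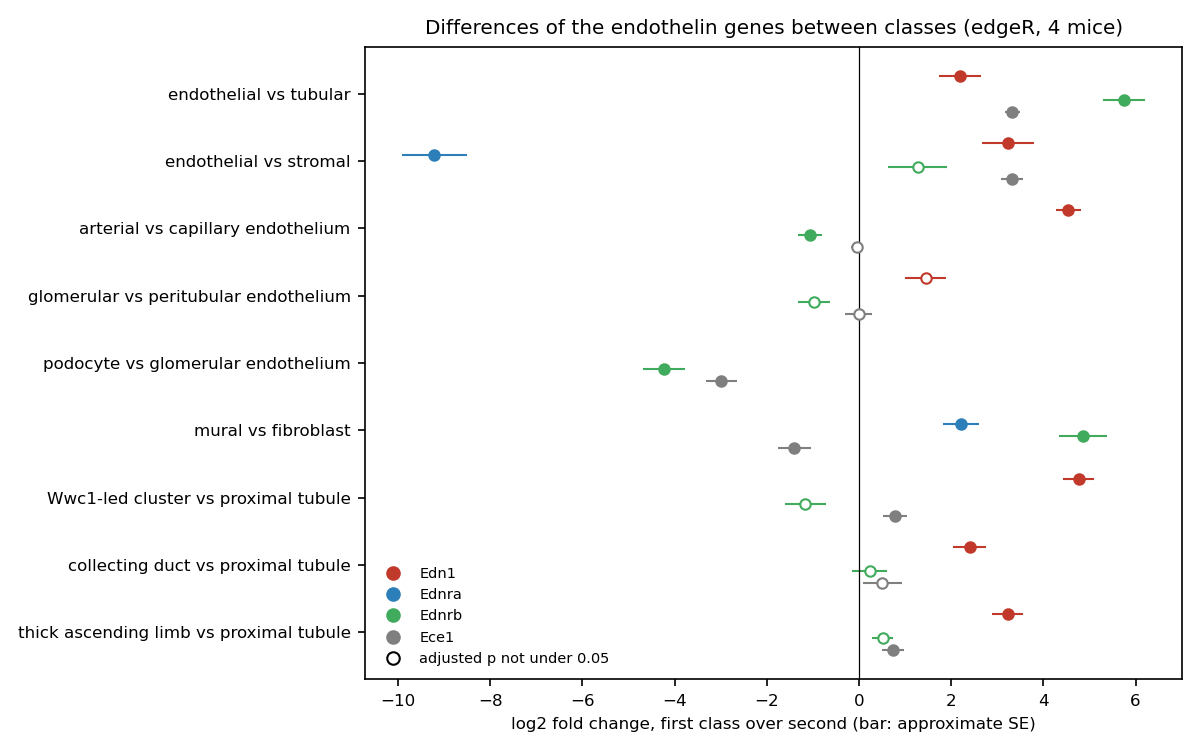
Log2 fold change of each gene between pairs of classes, first-named class over the second, from the edgeR fit over 4 mice, with bars of 1 approximate standard error. Filled points have an adjusted p under 0.05. Edn1 is to the right in arterial endothelium (4.54) and in the Wwc1-led cluster (4.77), and Ednra lies farthest to the left, at -9.21 between endothelial-like and stromal cells.

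Other genes of the pathway were grouped by role in 4 lists. Of 35 genes of receptor signalling (G proteins, phospholipases, calcium channels and regulators), 7 of 28 tested were higher and 3 lower in mural-like than in fibroblast-like cells, where 8.62% of all genes were higher and 9.99% lower, with a median log2 fold change of 0.25 against 0.01 over all genes. They included Trpc6, a receptor-operated calcium channel of smooth muscle (159 ± 88.6 CPM in mural-like and 2.27 ± 4.54 CPM in fibroblast-like cells, log2 fold change 5.50), and Rgs4 and Rgs2, which shorten Gq signals (4.58 and 3.15). Klf2, a flow-responsive factor known to restrain Edn1 in endothelium, was higher as well (2.00, edgeR adjusted p = 0.0152). Between endothelial-like and stromal cells, 10 of 34 tested genes of receptor signalling were higher and 10 lower, where 15.9% of all genes were higher and 14.8% lower, with a median log2 fold change of -0.08 against 0.05 over all genes and Trpc6 (-8.95) and Rgs4 (-8.32) among the lower. Gucy1a1 and Gucy1b1, the subunits of the nitric oxide receptor guanylate cyclase, averaged 0.71 ± 0.64 and 0.44 ± 0.52 CPM in endothelial-like cells, against 324 ± 123 and 219 ± 103 CPM in stromal cells (-8.52 and -8.51). Nos3, the endothelial nitric oxide synthase, was at 192 ± 83.8 CPM in endothelial-like and 5.25 ± 6.67 CPM in tubular-like cells (5.73, edgeR adjusted p = 6.48e-05).

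Of the 16 genes listed as regulators of Edn1 transcription, 5 were higher and 2 lower in arterial than in capillary endothelial-like cells, where 6.60% of all genes were higher and 6.48% lower, with a median log2 fold change of 0.20 against -0.03 over all genes. In the Wwc1-led cluster 5 of 15 tested were higher and 2 lower than in proximal tubule-like cells, where 15.1% of all genes were higher and 15.6% lower, with a median of 0.19 against -0.06. Of the signalling genes between arterial and capillary cells, Itpr3, an intracellular calcium release channel, was at 61.0 ± 31.5 CPM in arterial and 18.9 ± 7.33 CPM in capillary cells (1.57 ± 0.22, edgeR adjusted p = 0.00129). Rgs2 was higher in arterial cells by 1.51 and Prkg1, the cGMP-dependent kinase, was lower by a log2 fold change of -1.34. Between glomerular and peritubular cells Prkca (2.53), Trpc1 (1.43) and Plcb4 (-1.40) differed, a kinase, a channel and a phospholipase that act after Gq. Prkca was higher in 3 of 4 mice, with 0 to 119 CPM in glomerular and 10.9 to 14.2 CPM in peritubular cells. The ranges of Plcb4 overlapped as well.

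Few listed peptidase genes passed the filter on low counts, between 1 and 3 of 10 ligand and peptidase genes in each comparison. Mme, which encodes neprilysin, a protease that degrades endothelin-1, averaged 446 ± 158 CPM in podocyte-like and 0.42 ± 0.84 CPM in glomerular endothelial-like cells (9.79 ± 0.66, edgeR adjusted p = 1.88e-06). It averaged 148 ± 63.3 CPM in the Wwc1-led cluster and 15.9 ± 11.1 CPM in proximal tubule-like cells (3.03 ± 0.39, edgeR adjusted p = 2.79e-04). Intercalated-like cells, not tested on their own, averaged 459 ± 247 CPM of Mme. Between podocyte-like and glomerular endothelial-like cells the phospholipase gene Plcb1 (-5.46), Gata2, a factor that drives Edn1 in endothelium (-4.70), and Nos3 (-3.65) were lower. For Nos3 this held in 3 of 4 mice, with overlapping ranges. Ptgis, the prostacyclin synthase, was at 45.2 ± 22.0 CPM in the Wwc1-led cluster and 0.25 ± 0.29 CPM in proximal tubule-like cells (6.58, edgeR adjusted p = 1.90e-05), and the caveolin gene Cav1 was higher there too (3.08). In the collecting duct, 5 of 6 tested genes linked to type B receptor action were higher than in the proximal tubule, where 18.5% of all genes were, among them Ptges, a prostaglandin E synthase (6.27), and Cav1 (5.83), while Scnn1g (7.03) and Scnn1b (6.76), subunits of the epithelial sodium channel, were 2 of the 5 and also markers that named the class. In the thick ascending limb 3 of 4 were higher, where 18.9% of all genes were, with Nos1, the neuronal nitric oxide synthase, at 19.5 ± 13.0 CPM against 0.10 ± 0.19 CPM in the proximal tubule (7.15), Scnn1a (5.36) and Ptges (3.87). Cacna1d, a calcium channel gene, was higher there by 4.22.

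Genes whose levels followed each member across cell classes were sought among 14917 genes, as the mean over the 4 mice of the correlation of log2(CPM + 1) over 16 to 18 classes. The classes of a mouse share 1 library, and the values are a description. All endothelial-like cells counted as 1 class, so the Edn1 difference between arterial and capillary cells did not enter. Ednra was followed most closely by Kcnmb1, a potassium channel subunit of smooth muscle (mean r = 0.96), by the pericyte gene Ndufa4l2 (0.95), Gucy1b1 (0.95), Tmeff2 (0.94) and the pericyte surface gene Cd248 (0.94). Ednrb was followed by Cyyr1 (0.88), the collagen gene Col13a1 (0.86), the endothelial junction gene Esam (0.84), Tcf15 (0.82) and the endothelial gene Emcn (0.79). For Ece1 the closest were the endothelial adhesion receptor gene Adgrf5 (0.75), Bace2 (0.74), Lmcd1 (0.73), Flrt3 (0.73) and Palmd (0.72). Edn1 had the loosest company, with Tspan18 (0.66), Bad (0.66), Cdkn2b (0.61), Scin (0.61) and Fgfbp3 (0.61). Esam and Emcn were endothelial markers and Ndufa4l2 a pericyte marker used to name classes. Among the members, Ednrb had a mean r of 0.39 with Ece1 and 0.38 with Ednra, and Edn1 had 0.28 with Ece1, 0.06 with Ednrb and -0.12 with Ednra.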

How the data were processed

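The deposited values were whole-number counts, the UMIs of each gene in each barcode, with 1 matrix per mouse, made with Cell Ranger 9.0.1, per the file headers. The submitters' processing notes also name Seurat 4.1.1. The genome build and aligner settings are not given in the sources used here. Total counts per mouse were 66762741, 64757026, 105436725 and 36831995 UMIs. The members and gene lists were chosen with earlier results of these data known.

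Barcodes were kept with 500 UMIs, 300 genes and a mitochondrial share under 50%. The doublet caller marked 0, 107, 1 and 1 barcodes and did not work in mice 1, 3 and 4, so an alternative removed the highest doublet scores. Clustering (scanpy 1.11.5, 2000 variable genes without endothelin genes, Leiden resolution 1) gave 41 clusters. A class was named when at least 3 markers each had UMIs in 20% of its cells and lay 2-fold above the other cells. Endothelial-like and stromal cells were clustered again within each mouse.

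Counts were summed per mouse and class with 10 cells or more and tested in 9 comparisons with edgeR 4.0.16 (R 4.3.3; TMM, filterByExpr, quasi-likelihood, Benjamini-Hochberg over all genes tested), with the mouse as a block because both classes come from the same animals. Genes were called at an adjusted p under 0.05. Tests were checked on simulated counts. Alternatives were thinning to 1000 UMIs per cell, DESeq2 1.42.0, no filter on low counts, no block, other clustering and mitochondrial limits, removal of high doublet scores, and leaving out each mouse. Named beside the members were at most 4 listed genes per comparison, those with the largest change among called genes with an absolute log2 fold change of 1 or more, and the 5 genes most like each member. A listed gene that met this rule is not reported here. Libraries differed from each other beyond sampling noise and none was merged. Errors from counting cover counting only.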

Additional observations from a re-analysis of the deposited data

Results flagged for a closer look

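In 17 of 57 groups of 4 mice examined, 1 mouse lay far from the other 3. The rule used flags about 1 in 20 groups when values are independent and normally distributed. These groups share mice and in part cells, and several rest on few UMIs. Their number therefore cannot be set against that rate. Mouse 3 was the distant one in 14 of the 17. None of these values was traced to a cause.

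For Ednra, mouse 3 was far above the others in 9 classes. It had 301.5 CPM in fibroblast-like cells, where the others had 39.0 to 62.9. In classes near the background it had 3.925 CPM in endothelial-like cells, 7.275 in glomerular, 4.262 in peritubular and 2.578 in arterial endothelial-like cells, and the others had at most 0.19. It had 4.204 CPM in proximal tubule-like, 14.08 in thick ascending limb-like, 7.316 in distal convoluted tubule-like and 21.22 in collecting duct-like cells, where the others had at most 1.13. Mural-like cells, the main home of Ednra, numbered 1207 in mouse 3 and between 13 and 196 in the others, and the part of their free RNA in these values was not tested.

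For Edn1, mouse 3 had 13.66 CPM in proximal tubule-like cells (0.77 to 2.28 in the others) and 57.74 CPM in the urothelial-gene cluster (0 to 8.90). Mouse 4 had 205.9 CPM in endothelial-like cells (60.9 to 75.9) and 59.6 CPM in fibroblast-like cells (1.82 to 7.80), the last from 18 UMIs.

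For Ednrb, mouse 4 was low at 262.9 CPM in glomerular endothelial-like cells, from 12 UMIs (821 to 926 in the others). Mouse 3 was high at 235.3 CPM in thin limb-like cells (2.14 to 9.01) and 20.79 CPM in the urothelial-gene cluster (0 to 2.93). Ece1 in collecting duct-like cells was at 100.5 CPM in mouse 3 (10.8 to 14.6).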

How the results depend on the processing

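Of the 27 member tests, 18 were called, and 11 of these kept their direction and their call under every alternative that could be fitted. Over 286 alternative values 246 kept direction and side of the threshold, 20 lost the call, 10 gained it and 10 changed sign. The sign changes were all in differences that had not been called, of which the largest were Ednrb between thick ascending limb and proximal tubule (0.52) and Ece1 between collecting duct and proximal tubule (0.51). Ece1 between glomerular and peritubular cells was 0.14 with a mitochondrial limit of 20%, 0.0533 at clustering resolution 0.5, 0.0019 with DESeq2 and 0.0766 with no block, and it ran from -0.2579 to 0.2285 when a mouse was left out, the highest without mouse 4. Ece1 between arterial and capillary cells was 0.0518 with the 20% limit and ran from -0.1266 to 0.0319 with a mouse left out. Between collecting duct and proximal tubule, Ednrb ran from -0.0102 (without mouse 4) to 0.5393 and Ece1 from -0.1629 (without mouse 3) to 0.8348, and Ednrb between thick ascending limb and proximal tubule was -0.35 with high doublet scores removed. The cause of these changes was not tested.

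Counts of called genes fell with thinning and with no replicate block. After thinning they were 5142 (endothelial-like against tubular-like cells), 2187 (endothelial-like against stromal), 291 (mural-like against fibroblast-like), 216 (glomerular against peritubular), 686 (arterial against capillary), 815 (Wwc1-led cluster), 1458 (collecting duct), 2005 (thick ascending limb) and 467 (podocyte-like against glomerular). In that order, the fit with no replicate block, which ignores the pairing of classes by mouse, called 4745, 2057, 478, 94, 140, 1271, 2195, 2187 and 1262. It ended the calls of Edn1 between endothelial-like and stromal cells (adjusted p = 0.121) and between collecting duct and proximal tubule (0.121), of Ednra between mural-like and fibroblast-like cells (0.220), of Ednrb between arterial and capillary cells (0.881), and of Ece1 between mural-like and fibroblast-like cells (0.253), in the Wwc1-led cluster (0.178) and in the thick ascending limb (0.311). With no filter on low counts 1920 genes were called between mural-like and fibroblast-like cells, 1394 between glomerular and peritubular, 2218 between arterial and capillary and 3255 between podocyte-like and glomerular cells. Leaving out each mouse gave 2442 to 4535 calls between endothelial-like and stromal cells, 779 to 1299 between mural-like and fibroblast-like cells and 958 to 1449 between arterial and capillary cells. After thinning, several members were too low to test in the proximal tubule and podocyte comparisons, and removal of high doublet scores left 3 mice between mural-like and fibroblast-like cells.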

Other observations

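Ednra and Ednrb were often found in the same mural-like cells. Both genes had a UMI in 56.0%, 60.2%, 78.8% and 23.1% of mural-like cells of mice 1 to 4, the last of 13 cells. Ednrb was found in 73.9%, 76.6% and 88.1% of the cells with Ednra in mice 1, 2 and 3, against 39.3%, 33.3% and 59.8% of those without it, and in mouse 4 in 60% of the 5 cells with Ednra, against 62.5% of the 8 without it. The cells with Ednra were also deeper, with medians of 8879, 11124 and 8267 UMIs against 2643, 2564 and 2108, and the part of depth in this difference was not tested. In arterial endothelial-like cells Edn1 and Ednrb were found together in 25.0%, 23.3%, 21.1% and 12.5% of cells of mice 1 to 4.

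In mouse 3, which held 1207 of the 1532 mural-like cells, the highest receptor levels lay in subclusters that met no marker name. A subcluster of 50 cells with Il11, Stc1 and Ptgs2 among its leading genes had 4147 CPM of Ednrb and 1457 CPM of Ednra, and 1 of 114 cells with Plau and Stc1 had 3900 and 1452 CPM. Ednra was highest in a subcluster of 182 cells led by Ackr3, with 2019 CPM, and in 1 of 76 cells led by Art3, with 2018 CPM. Their Ednrb was at 2826 and 3487 CPM. The vascular smooth muscle-like subclusters of the same mouse had 365 and 531 CPM of Ednrb and 415 and 652 CPM of Ednra. These subclusters were picked after their values were seen. Ackr3 and Ephx3, leading genes of the subcluster of 182 cells, were also leading genes of pericyte- and mesangial-like subclusters in mice 1 and 2. Those had 535 and 573 CPM of Ednra and 1246 and 1168 CPM of Ednrb. For the other subclusters no counterpart was looked for in the other mice. Some of the other unnamed mural subclusters of mouse 3 were led by genes of macrophages, lymphocytes, endothelium or tubule.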
